A study of Mus musculus with 12 samples.

Results

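Prolactin-treated cultures of AML12 were set against serum-free control cultures, selected by sample title, which gave 4 of the 12 arrays in the series. AML12 is a hepatocyte line whose source mice were transgenic for TGF-alpha, although the labels give its cell source as hepatoma. The 2 cultures labelled AML12 prolactin-treated received 200 ng/mL of ovine prolactin purified from pituitary for 8 h. The 2 cultures labelled AML12 serum-free control received none, and no label says whether they got the vehicle. Both groups had been maintained in DMEM with 10% fetal bovine serum, dexamethasone and insulin, and were deprived of all of these overnight, so both share that withdrawal. The other 8 arrays, 2 each of AML12 with actinomycin D and of Hepa 1-6 hepatoma cells with prolactin, with actinomycin D and without either, entered the estimate of the spread and 2 side comparisons. The comparison asks which transcripts prolactin changes in a hepatocyte line. The design text calls the 2 samples per group biological replicates, but nothing says how the cultures were separated, so the spread may be partly technical.

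Each array compared the RNA of 1 culture (Cy5) with a common reference RNA from 11 mouse cell lines (Cy3), and the deposited values are the authors' normalized ratios of sample to reference, read here as log10 and converted to log2. Had the base been another one, all log2 values would shrink or grow by 1 factor and keep their signs and p-values. A level below is a log2 ratio to the reference and can be compared between arrays, not between genes. A change is the prolactin mean minus the control mean, n = 2 arrays each, with the standard error (SE) of the model. The 4 arrays held a ratio for 39259 to 39700 of 45018 features. Across 16549 genes the 2 prolactin arrays correlated at 0.981 and the 2 controls at 0.985, and the median gap between replicates was 0.12 and 0.10 log2 units. Of 9 measured hepatocyte markers, 7 lay above the reference in controls, with list medians of 3.83 on prolactin arrays and 3.96 on control arrays. Cholangiocyte or progenitor markers lay above it for 4 of 5 genes (medians 2.13 and 2.39), endothelial markers for 2 of 5 (medians -0.32 and -0.08), and stellate cell and leukocyte markers for 0 of 7 (medians -4.24 and -3.88) and 0 of 4 (medians -3.94 and -3.64). None of the 30 measured markers passed the test in limma, and the smallest adjusted p was 0.081, for Asgr1, which encodes a subunit of the asialoglycoprotein receptor of hepatocytes.

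Prolactin binds a single-pass receptor of the cytokine receptor class that carries the kinase JAK2. The kinase phosphorylates STAT5A and STAT5B, which enter the nucleus and bind palindromes of the form TTCNNNGAA. CIS and the SOCS proteins, themselves made from STAT5 targets, bind the receptor complex and damp the signal, and in the liver the same route also serves growth hormone. To show what such elements look like at genes described below, stretches of RefSeq promoter windows are printed. The windows (GRCm38.p6) run from 250 bases before to 50 after an annotated start. Every TTCNNNGAA match is in capitals, 5′ to 3′ on the gene's strand. The genes and stretches were picked because they hold matches, so the matches seen there are not a result. The stretch of Cish lies at chr9:107296654-107296683 (plus strand), that of Pde4b at chr4:102569900-102569928 (plus strand), and that of Bcl6 at chr16:23981354-23981458 (minus strand).
Cish: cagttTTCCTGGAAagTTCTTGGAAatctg
Pde4b: ctttgagaatTTCCCAGAAagcaataaat
Bcl6: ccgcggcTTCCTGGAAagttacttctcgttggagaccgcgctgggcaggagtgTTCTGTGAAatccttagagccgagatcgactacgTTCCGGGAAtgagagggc
Cish, which had 1 window, held a pair of matches, and the printed stretches of Pde4b and Bcl6 come from 1 of 4 and 1 of 2 windows. At least 1 match, which reads the same on both strands, stood in 8.30% of all 32851 windows, at least 2 in 0.457% and at least 3 in 0.0335%. Among genes with a window that changed with prolactin, 8 of 92 raised genes (8.70%) and 8 of 66 lowered genes (12.1%) held one, beside 8.59% of all tested genes. At least 2 stood in 1 of 92 raised genes (1.09%, Cish) and 1 of 66 lowered genes (1.52%, Bcl6), beside 0.497% of tested genes. Of lowered genes described below, Klf15, Fkbp5, Dusp1, Ddit4 and Errfi1 held 0 matches, and Per1, Tsc22d3 and Klf9 at most 1 in a window. The letters are a description of the sequence and do not say that STAT5 binds there.

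Prolactin changed 210 of 16549 genes (1.27%), of which 119 were higher (0.719%) and 91 lower (0.550%) at a Benjamini-Hochberg adjusted p under 0.05 in limma. Every count in a gene list below is to be read beside these shares. A list with few calls is described and not read as a response of that list. In a bulk culture, more RNA per cell and more cells with the RNA cannot be told apart. The median change of the raised genes was 0.57 and of the lowered genes -0.59, against -0.03 over all genes, and 29 of the 210 changed at least 2-fold, 12 up and 17 down. All 210 had both prolactin arrays on 1 side of both controls, as had 48.8% of all genes tested. Where the groups of a gene that passed are called apart below, this describes its values and adds no support. Of the genes that passed, 12 were predicted or unnamed models, which are counted and not named, and 120 rested on 1 array feature. In 89 of the other 90, every feature of the gene moved the same way. Features of a gene share the same arrays and make up the average that was tested. Their agreement, here and for genes named below, is therefore not separate support. A permutation of 2 arrays against 2 could not go below p = 0.333 for any gene, so the calls rest on the spread pooled over the 6 groups. The same model limited to the 6 AML12 arrays or to the 4 compared arrays passed 0 genes, with 2244 and 2324 at an unadjusted p under 0.05 (2796 with all arrays).

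**Figure D1:**
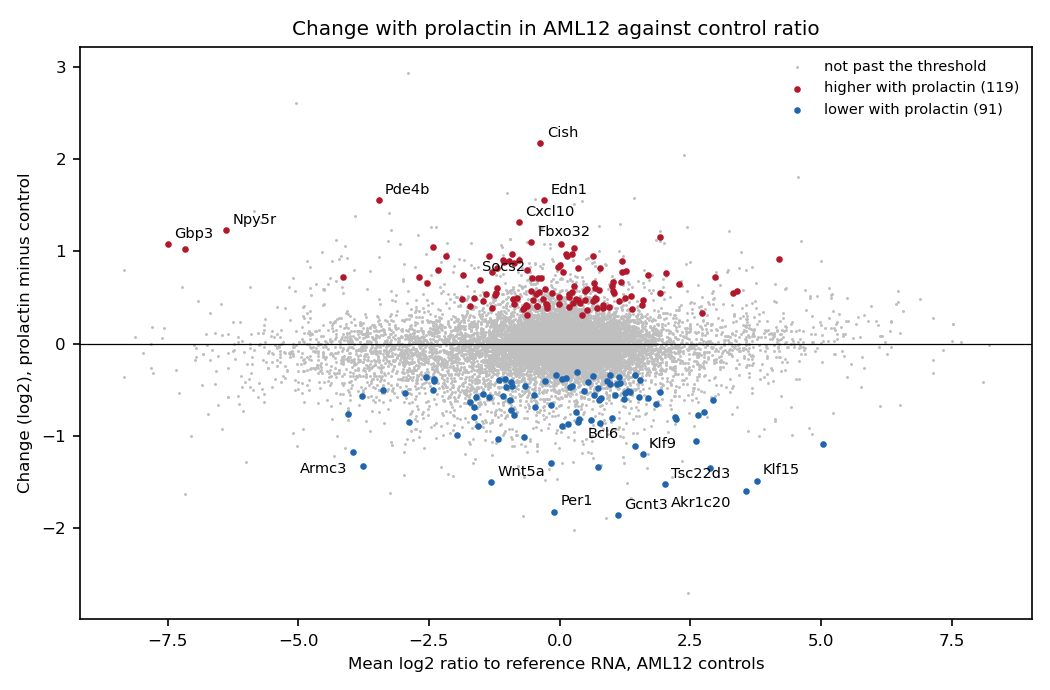
Change with prolactin in AML12 (prolactin minus control, log2, vertical axis) against the mean log2 ratio to the reference in the controls (horizontal axis), 1 point a gene. Red points are the 119 genes that were higher, blue points the 91 that were lower and grey points did not pass; Cish stands at 2.17, and Gbp3 and Npy5r lie at control ratios under -6.

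Among genes that passed, the largest rise was that of Cish, which encodes the feedback inhibitor CIS. Its level was 1.76 and 1.85 on the prolactin arrays, against -0.26 and -0.48 on the control arrays, a rise of 2.17 ± 0.13 (adjusted p = 0.00066), or 4.50-fold. Both prolactin arrays stood above the reference and both controls below it. Socs2, which encodes a second inhibitor of growth hormone and prolactin signalling, was at 0.35 and 0.35 on the prolactin arrays, against -0.42 and -0.30 on the control arrays, a rise of 0.71 ± 0.06 (adjusted p = 0.003). Its prolactin arrays lay within 0.01 of each other, and clear of both controls. These were 2 of the 8 measured genes of the CIS and SOCS family, and the other 6 did not pass, with a list median of 0.04. The RefSeq promoter table held no entry matched to Socs2.

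Genes for the signalling machinery itself did not pass. The list of receptor, JAK and STAT genes also holds other signalling genes, such as those of tyrosine phosphatases. Among its 20 measured genes 0 rose and 0 fell, with changes of -0.38 to 0.18 and a median of 0.02. Jak2, the receptor-bound kinase, was at 0.62 and 0.79 on the prolactin arrays, against 0.62 and 0.50 on the control arrays, and its change was 0.15 ± 0.24 (adjusted p = 0.82). The changes of the transcription factor genes were 0.07 ± 0.08 (adjusted p = 0.71) for Stat5a and -0.06 ± 0.09 (adjusted p = 0.81) for Stat5b, and that of Ghr, the growth hormone receptor gene, was 0.13 ± 0.07 (adjusted p = 0.38). The lower prolactin array of Jak2 lay within 0.01 of the higher control, and its SE was the widest of these 4 genes. Nearest to the threshold was Ptpn1, a tyrosine phosphatase that acts on JAK2, at -0.33 ± 0.06 (adjusted p = 0.057). The gene for the prolactin receptor was not analysed here.

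Of 21 other genes known to respond to STAT5 in liver or blood cells, 0 rose and 4 fell, with a median of -0.15. The list is not divided by whether STAT5 raises or lowers a gene, so its falls are not read as a STAT5 response. Bcl6, a transcriptional repressor gene that STAT5 is known to repress, was at -0.41 and -0.49 on the prolactin arrays, against 0.37 and 0.38 on the control arrays, a change of -0.82 ± 0.06 (adjusted p = 0.0019). Each group's 2 arrays differed by less than 0.1, and the groups lay on opposite sides of the reference. Pim3, a serine/threonine kinase gene, was at -0.60 and -0.38 on the prolactin arrays, against 0.28 and 0.44 on the control arrays, a change of -0.85 ± 0.10 (adjusted p = 0.017). Bcl2l1, which encodes the survival protein BCL-XL, was measured by 12 features, all of them lower, at -0.92 to -0.71. Its level averaged over them was 1.31 and 1.49 on the prolactin arrays, against 2.14 and 2.29 on the control arrays, a change of -0.82 ± 0.10 (adjusted p = 0.017). Id1, an inhibitor of basic helix-loop-helix factors, fell as well, at -0.85 ± 0.12 (adjusted p = 0.027). Igf1, a target of hepatic growth hormone signalling, had a change of -0.00 ± 0.07 (adjusted p = 0.99), and Myc was at -1.39 and -1.05 on the prolactin arrays, against -1.63 and -1.63 on the control arrays, a change of 0.41 ± 0.10 (adjusted p = 0.10) that did not pass.

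**Figure D2:**
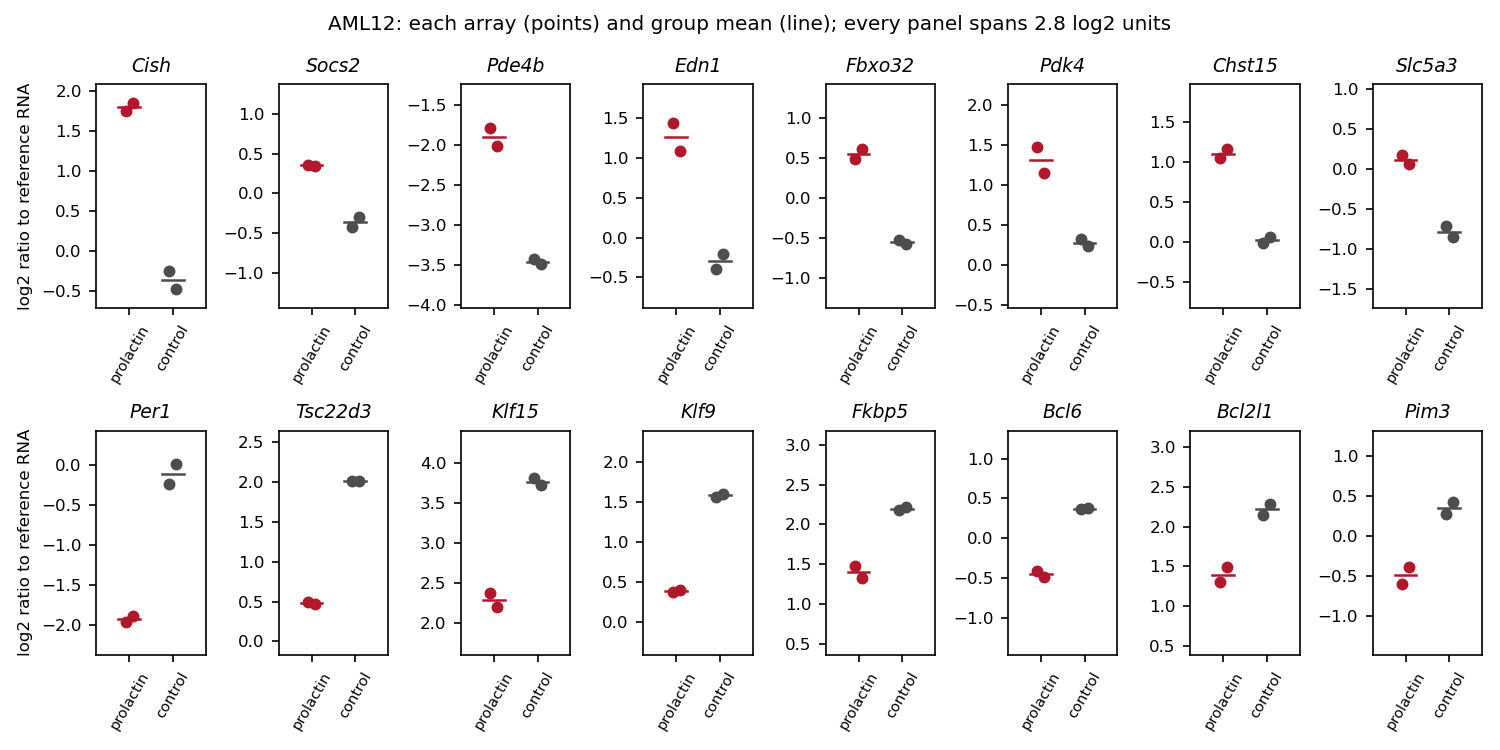
Log2 ratio to the reference RNA of 16 genes in AML12, each array as a point and each group mean as a line, prolactin left of control. Every panel spans the same number of log2 units; in each of the 16 panels the groups do not overlap, with Cish at 1.76 and 1.85 with prolactin and Per1 at -1.97 and -1.90.

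The list with the most falls held genes known to be induced by glucocorticoids, whose receptor is a hormone-activated transcription factor. Of 29 measured, 8 fell and 2 rose, with a median of -0.24 and 21 of 29 below 0. Per1, a clock repressor gene, was at -1.97 and -1.90 on the prolactin arrays, against -0.24 and 0.01 on the control arrays. Its change of -1.82 ± 0.10 (adjusted p = 0.00042) was the lowest of the list. Tsc22d3, which encodes the anti-inflammatory leucine zipper GILZ, was at 0.49 and 0.47 on the prolactin arrays, against 2.01 and 2.01 on the control arrays. Its change of -1.53 ± 0.05 (adjusted p = 5.6e-05) had the smallest adjusted p among the 210 genes, and its 3 features ran from -1.72 to -1.25. Klf15, a regulator of amino acid and glucose metabolism, was at 2.37 and 2.20 on the prolactin arrays, against 3.81 and 3.73 on the control arrays, a change of -1.48 ± 0.09 (adjusted p = 0.00084). Klf9, a related factor gene, was at 0.37 and 0.39 on the prolactin arrays, against 1.56 and 1.60 on the control arrays, a change of -1.20 ± 0.06 (adjusted p = 0.00033). Fkbp5, whose product holds the glucocorticoid receptor in a low-affinity state, was at 1.48 and 1.33 on the prolactin arrays, against 2.18 and 2.22 on the control arrays, a change of -0.80 ± 0.07 (adjusted p = 0.0031). In none of these 5 genes did a prolactin array reach a control array. Falls of smaller size or wider spread were found for the MAP kinase phosphatase gene Dusp1 at -0.48 ± 0.09 (adjusted p = 0.047), the mTORC1 inhibitor gene Ddit4 at -0.72 ± 0.10 (adjusted p = 0.025), and the EGF receptor inhibitor gene Errfi1 at -0.69 ± 0.11 (adjusted p = 0.031).

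Against that direction, 2 genes of the list rose. Tat, the tyrosine aminotransferase gene of hepatocytes, was at 1.94 and 2.23 on the prolactin arrays, against 1.24 and 1.13 on the control arrays, a rise of 0.90 ± 0.11 (adjusted p = 0.017). Pdk4, whose kinase switches off pyruvate dehydrogenase, was at 1.48 and 1.15 on the prolactin arrays, against 0.32 and 0.24 on the control arrays, a rise of 1.04 ± 0.11 (adjusted p = 0.011). For both genes the groups were clear of each other. The list also held Igfbp1, a liver-secreted binding protein for insulin-like growth factors, at 4.02 and 4.82 on the prolactin arrays, against 3.22 and 1.54 on the control arrays. Its change of 2.04 ± 0.50 (adjusted p = 0.10) did not pass, and its 2 controls differed by more than 1.5 log2 units.

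Genes that FoxO factors are known to induce when insulin signalling is low included 5 that rose and 2 that fell among 23 measured, with a median of 0.22. Fbxo32, the atrogin-1 ubiquitin ligase gene, was at 0.49 and 0.62 on the prolactin arrays, against -0.53 and -0.57 on the control arrays, a rise of 1.10 ± 0.08 (adjusted p = 0.0022). Its 2 features gave 1.03 to 1.17. Txnip, an inhibitor of thioredoxin and of glucose uptake, rose by 0.74 ± 0.09 (adjusted p = 0.016). Ccng2, an atypical cyclin of resting cells, rose by 0.78 ± 0.12 (adjusted p = 0.031), and Cdkn1b, which encodes the cell cycle inhibitor p27, by 0.60 ± 0.10 (adjusted p = 0.04), with all 12 of its features above 0 (0.26 to 0.78). The fifth was Pdk4, and the 2 that fell were Klf15 and Bcl6, both described above.

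**Figure D3:**
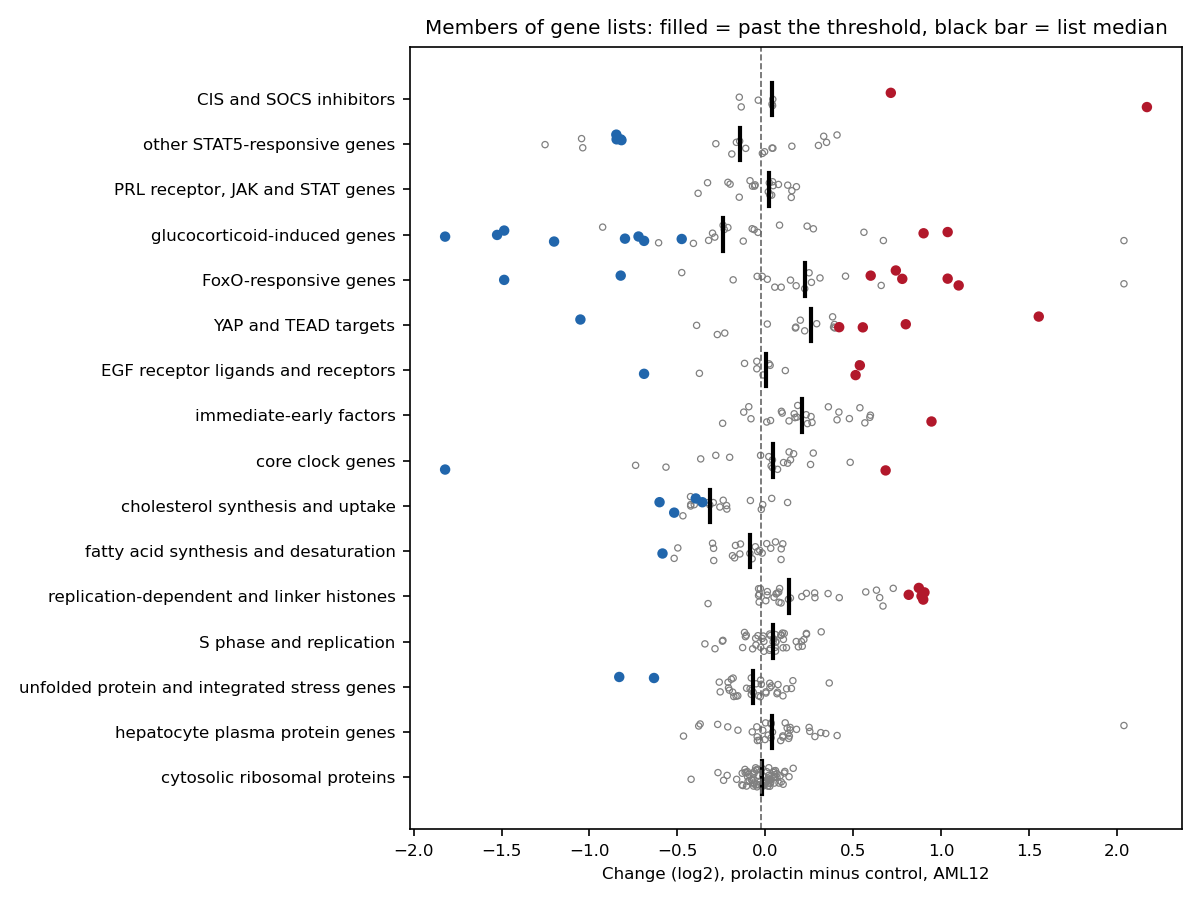
Change with prolactin in AML12 (log2, horizontal axis) of every measured member of 16 gene lists, 1 point a gene. Filled red or blue points passed, open points did not, black bars are list medians and the dashed line is the median of all genes (-0.03); the cholesterol list has 4 filled points below 0 and the histone list 5 above it.

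Growth factor and adhesion signals came next. Edn1, the gene of the vasoconstrictor peptide endothelin 1, was at 1.43 and 1.08 on the prolactin arrays, against -0.40 and -0.20 on the control arrays, a rise of 1.56 ± 0.13 (adjusted p = 0.003). Both controls lay below the reference and both prolactin arrays more than 1 log2 unit above it. Edn1 was 1 of 18 measured genes known as targets of the YAP and TEAD factors, of which 4 rose and 1 fell, with a median of 0.26. The others that rose were the matricellular protein gene Ccn1 at 0.80 ± 0.14 (adjusted p = 0.043), the LIM protein gene Ajuba at 0.42 ± 0.07 (adjusted p = 0.043) and the BMP-binding membrane protein gene Crim1 at 0.55 ± 0.05 (adjusted p = 0.0065). Ccn2, which encodes connective tissue growth factor, was at 1.41 and 1.70 on the prolactin arrays, against 2.62 and 2.59 on the control arrays, a change of -1.05 ± 0.14 (adjusted p = 0.021). The matricellular pair Ccn1 and Ccn2 thus had changes of opposite sign, each resting on 1 feature. With 1 array left out, the change of Ccn1 ran from 0.56 to 1.03 and that of Ccn2 from -1.20 to -0.91.

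Of 12 EGF receptor ligand, receptor and inhibitor genes, 2 rose and 1 fell. The ligand gene Hbegf was at 0.16 and 0.01 on the prolactin arrays, against -0.44 and -0.47 on the control arrays, a rise of 0.54 ± 0.08 (adjusted p = 0.029). Egfr, the receptor gene, was measured by 24 features, all higher, from 0.22 to 1.06, and averaged a rise of 0.51 ± 0.07 (adjusted p = 0.022). The inhibitor gene Errfi1 was the one that fell. Tgfa, the ligand whose transgene the source mice carried, had a change of -0.05 ± 0.11 (adjusted p = 0.88). Among 29 dual-specificity phosphatase and Sprouty genes, which restrain MAP kinases, Dusp10 rose by 0.82 ± 0.11 (adjusted p = 0.02) and Dusp4 by 0.50 ± 0.07 (adjusted p = 0.03), whereas Dusp1 fell. Of 26 genes listed as immediate-early factors only Ier3, a stress-induced regulator of survival, passed, at 0.95 ± 0.15 (adjusted p = 0.036). However, 22 of the 26 changes were above 0 and the median was 0.21. Nr4a2, counted below in the cyclic AMP list, is not among the 26.

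Pde4b, a phosphodiesterase gene whose product breaks down cyclic AMP, was at -1.79 and -2.02 on the prolactin arrays, against -3.42 and -3.49 on the control arrays. Its rise of 1.56 ± 0.09 (adjusted p = 0.00053) was seen in all 3 features (1.41 to 1.66). All 4 arrays lay below the reference, and the prolactin arrays were the higher ones. Of 16 cyclic AMP-responsive and phosphodiesterase genes, 2 rose and 1 fell, the others being the orphan nuclear receptor gene Nr4a2 at 0.60 ± 0.08 (adjusted p = 0.022) and Per1. Gene lists of secreted signals held few calls. The non-canonical ligand gene Wnt5a was at -2.54 and -3.08 on the prolactin arrays, against -1.59 and -1.02 on the control arrays, a change of -1.50 ± 0.24 (adjusted p = 0.033), and the Wnt-inactivating enzyme gene Notum was lower at -0.89 ± 0.14 (adjusted p = 0.033), which made 2 falls and 0 rises in 30 Wnt genes. Cxcl10, a T cell chemokine, was at 0.14 and 0.93 on the prolactin arrays, against -0.64 and -0.91 on the control arrays, a rise of 1.31 ± 0.23 (adjusted p = 0.042) with a wide gap between the prolactin arrays. It was the only one of 29 chemokines that passed, and with Gbp3, an interferon-induced GTPase gene, 1 of 2 that rose among 61 interferon-stimulated genes, whose median was -0.08.

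Sterol synthesis was the metabolic list with the most falls. Of 21 measured genes of cholesterol synthesis and uptake, 4 fell and 0 rose, 19 of 21 changes were below 0, and the median was -0.32 against -0.03 for all genes. Msmo1, a sterol C4 demethylation enzyme gene, was at 0.70 and 0.56 on the prolactin arrays, against 1.23 and 1.24 on the control arrays, a change of -0.60 ± 0.08 (adjusted p = 0.021). Mvd, mevalonate diphosphate decarboxylase, was at -0.06 and -0.04 on the prolactin arrays, against 0.39 and 0.55 on the control arrays, a change of -0.52 ± 0.09 (adjusted p = 0.037). In both genes the groups were apart, by less than 1 log2 unit. Fdps, farnesyl diphosphate synthase, fell by 0.40 ± 0.06 (adjusted p = 0.024), and Sc5d, a late sterol desaturase, fell by 0.36 ± 0.06 (adjusted p = 0.033). Scd2, a stearoyl-CoA desaturase gene, at -0.59 ± 0.10 (adjusted p = 0.043), was the 1 gene past of 23 in fatty acid synthesis. Among 23 genes of fatty acid oxidation and PPAR response, Pdk4 rose, as did the lipase inhibitor gene Angptl4 at 0.66 ± 0.09 (adjusted p = 0.022). Pex11a, a peroxisome division gene, was at 0.22 and 0.16 on the prolactin arrays, against 1.08 and 0.92 on the control arrays, and its change of -0.81 ± 0.08 (adjusted p = 0.0099) was seen in each of 10 features (-0.86 to -0.73). Ch25h, which makes 25-hydroxycholesterol, was at -1.44 and -1.29 on the prolactin arrays, against -2.44 and -2.39 on the control arrays, a rise of 1.05 ± 0.13 (adjusted p = 0.016).

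Histone genes leaned upward. Of 34 measured, 5 rose and 0 fell, 28 of 34 changes were above 0, and the median was 0.14. The 5 were all histone H4 genes. H4c14 was at -0.13 and -0.22 on the prolactin arrays, against -0.92 and -1.24 on the control arrays, a rise of 0.91 ± 0.11 (adjusted p = 0.016), and H4c6 was at -0.05 and -0.09 on the prolactin arrays, against -0.79 and -1.15 on the control arrays, a rise of 0.90 ± 0.11 (adjusted p = 0.016). Changes of 0.82 for H4c1, 0.89 for H4c4 and 0.87 for H4f16 were close to these. H4 genes are near-identical copies, so the signal cannot be allotted to single genes, and the 5 are not 5 independent results. A sixth H4 gene, H4c9, named because it was the remaining one measured and after its value was seen, was at 0.28 ± 0.11 (adjusted p = 0.24). Genes of S phase and replication gave 0 rises and 0 falls among 43, with a median of 0.04, and the nearest, the helicase subunit gene Mcm6, was at 0.32 ± 0.10 (adjusted p = 0.17). Among 46 mitosis genes only the spindle motor gene Kif11 passed, at 0.43 ± 0.07 (adjusted p = 0.032).

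Among 21 clock genes, Nr1d2, which encodes the repressor REV-ERB-beta, was at -0.84 and -0.84 on the prolactin arrays, against -1.48 and -1.56 on the control arrays, a rise of 0.68 ± 0.08 (adjusted p = 0.016), while Per1 fell. In 24 Kruppel-like and SP factor genes, Sp4 rose by 0.48 ± 0.08 (adjusted p = 0.033) and Klf15 and Klf9 fell. Gata6, an endoderm factor gene, rose by 0.47 ± 0.08 (adjusted p = 0.036), as the 1 of 26 hepatocyte transcription factor genes that passed. Of 308 Zfp zinc finger genes 5 rose and 0 fell, beside 0.719% higher and 0.550% lower among all genes. They were Zfp979 (1.03), Zfp217 (0.63), Zfp784 (0.63), Zfp867 (0.55) and Zfp652 (0.47), and the list median was 0.02. Herpud1, a gene of endoplasmic reticulum-associated degradation, was at -0.16 and -0.29 on the prolactin arrays, against 0.70 and 0.51 on the control arrays, a change of -0.83 ± 0.09 (adjusted p = 0.015), and the glutathione-cleaving enzyme gene Chac1 fell by 0.63 ± 0.10 (adjusted p = 0.036), 2 of 37 in the unfolded protein list. The polo-like kinase gene Plk3 fell by 0.51 ± 0.07 (adjusted p = 0.028), and with Ddit4 made 2 of 23 p53 targets. Bcl2l1 was the 1 of 15 BCL2 family genes that passed, Id1 the 1 of 18 Id, Hes and Smad genes, and Nr1d2 and Nr4a2 were 2 of 37 nuclear receptor genes. The ribosome assembly gene Rrs1 fell by 0.45 ± 0.08 (adjusted p = 0.0495), 1 of 36 MYC and ribosome biogenesis genes, of which 29 were below 0.

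Of liver functions, 2 of 60 cytochrome P450 genes rose, the drug- and lipid-metabolizing Cyp2c29, at 5.02 and 5.18 on the prolactin arrays, against 4.02 and 4.35 on the control arrays, a rise of 0.91 ± 0.16 (adjusted p = 0.042), and Cyp2s1, at 0.97 ± 0.13 (adjusted p = 0.022). In the aldo-keto reductase family, 1 of 13 fell, Akr1c20, at 2.26 and 1.69 on the prolactin arrays, against 3.95 and 3.18 on the control arrays, a change of -1.59 ± 0.28 (adjusted p = 0.045) with gaps of over 0.5 between replicates. Plasma protein genes gave 0 calls among 37 (median 0.04), Igfbp1 being the nearest. Slc30a1, which exports zinc, rose by 0.46 ± 0.06 (adjusted p = 0.021), and Slc39a14, which imports zinc and iron, fell by 0.44 ± 0.07 (adjusted p = 0.03). Slc40a1, the iron exporter ferroportin, was at 3.62 and 3.79 on the prolactin arrays, against 2.95 and 3.01 on the control arrays, a rise of 0.73 ± 0.09 (adjusted p = 0.02). Slc5a3, a myo-inositol transporter, was at 0.17 and 0.07 on the prolactin arrays, against -0.72 and -0.86 on the control arrays, a rise of 0.90 ± 0.08 (adjusted p = 0.003). The groups of both genes were clear of each other. The organic ion transporter-like gene Slc22a23 rose by 0.34 ± 0.06 (adjusted p = 0.047) and the bicarbonate transporter gene Slc4a4 fell by 0.78 ± 0.13 (adjusted p = 0.042), which with Slc40a1 and Slc5a3 made 4 calls in 288 other solute carrier genes, a share close to the 1.27% of all genes.

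In 110 F-box and TRIM genes, which supply substrate receptors and ligases for ubiquitin, 3 rose and 1 fell, beside 0.719% higher and 0.550% lower among all genes. Beside Fbxo32 these were Fbxw13 (0.95) and Fbxl20 (0.46), and Fbxl21, a partner of the clock proteins CRY, at -1.09 ± 0.18 (adjusted p = 0.036). Of 529 olfactory receptor genes 1 rose, Olfr1143 (0.59), and 1 fell, Olfr739 (-1.11), beside 1.27% of all genes. Lists without a call were 13 of 47, with medians between -0.11 and 0.05. The gene nearest to the threshold in these was, for NF-kB feedback, Nfkbie at -0.38 ± 0.07 (adjusted p = 0.059), for collagens, Col17a1 at -0.65 ± 0.12 (adjusted p = 0.051), and for gluconeogenesis and glycogen, the glycogen-targeting subunit gene Ppp1r3c at 1.38 ± 0.30 (adjusted p = 0.075). For acute-phase genes it was Cp at -0.27 ± 0.07 (adjusted p = 0.11), for hypoxia and glycolysis Egln3 at -0.54 ± 0.14 (adjusted p = 0.11), for phase II enzymes Sult4a1 at -0.33 ± 0.08 (adjusted p = 0.085), and for heat shock Hspb8 at -0.22 ± 0.06 (adjusted p = 0.15). Krt18 at 0.37 ± 0.12 (adjusted p = 0.17) among keratins, Uqcrq at -0.25 ± 0.09 (adjusted p = 0.20) among oxidative phosphorylation genes and Rps6 at -0.22 ± 0.08 (adjusted p = 0.22) among ribosomal proteins completed these, with the receptor, S phase and plasma protein lists given above.

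Further genes among the 15 largest rises and 15 largest falls of those that passed lay outside the lists. Rises included Chst15, a sulfotransferase of chondroitin sulfate, at 1.06 and 1.16 on the prolactin arrays, against -0.01 and 0.06 on the control arrays, a rise of 1.08 ± 0.08 (adjusted p = 0.0023), and Lmo7, a LIM-domain protein of cell junctions, at 1.16 ± 0.20 (adjusted p = 0.044). Npy5r, a neuropeptide Y receptor gene, at -5.02 and -5.28 on the prolactin arrays, against -6.34 and -6.41 on the control arrays, together with Gbp3 and Zfp979, had control levels under -6, where a ratio may lie at the detection floor, so the size of these rises is uncertain. The largest fall among genes that passed was that of Gcnt3, a mucin glycosyltransferase, at -0.35 and -1.14 on the prolactin arrays, against 1.12 and 1.11 on the control arrays, a change of -1.86 ± 0.31 (adjusted p = 0.039), with wide spread between the prolactin arrays. Usp2, a deubiquitinase, fell by 1.03 ± 0.16 (adjusted p = 0.033), Klhl41, a kelch protein of muscle, fell by 1.30 ± 0.21 (adjusted p = 0.036), and Fam163a fell by 1.01 ± 0.13 (adjusted p = 0.021). Armc3 (-1.33) and Nlrp4c (-1.18) had prolactin levels under -4.8, which places the same doubt on the size of these 2 falls.

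Leaving out 1 array at a time, with a lone remaining replicate assumed to vary like the other groups, showed which calls held without any 1 of the arrays. Outside the compared groups, dropping either array of a group gives the same fit for prolactin against control. The 12 fits are therefore not all distinct, and tallies over them count some fits more than once. In all 12 such fits 19 genes passed, 10 higher and 9 lower, and 34 of the 210 passed in none. The 10 that were higher were Cish, Pde4b, Edn1, Fbxo32, Chst15, Slc5a3, Socs2 and 3 not yet described. Klhl24, a kelch protein that targets intermediate filaments, was at 0.99 and 1.19 on the prolactin arrays, against 0.24 and 0.01 on the control arrays, a rise of 0.97 ± 0.09 (adjusted p = 0.0065). The transposon-derived gene Zbed5 was at 0.13 and -0.03 on the prolactin arrays, against -0.90 and -0.94 on the control arrays, a rise of 0.97 ± 0.08 (adjusted p = 0.0031). The membrane protein gene Tmem140 was at 2.87 and 2.74 on the prolactin arrays, against 2.02 and 2.05 on the control arrays, a rise of 0.77 ± 0.07 (adjusted p = 0.0047). None of these 3 genes had overlapping groups. The 9 that were lower were Per1, Tsc22d3, Klf15, Klf9, Fkbp5, Bcl6, Pex11a, Rab20 and Tent5b. Rab20, a small GTPase gene, was at -0.45 and -0.42 on the prolactin arrays, against 0.35 and 0.27 on the control arrays, a change of -0.75 ± 0.05 (adjusted p = 0.0018). Tent5b, of a poly(A) polymerase family, was at 2.00 and 2.04 on the prolactin arrays, against 2.77 and 2.76 on the control arrays, a change of -0.74 ± 0.05 (adjusted p = 0.0018). In both, replicates lay within 0.1 of each other. By contrast Akr1c20, Ajuba, Dusp1, Gata6 and Slc22a23 passed in 0 of the 12 fits, Pim3 in 10, Bcl2l1 in 9, H4c14 in 10, Cxcl10 in 2 and Msmo1 in 7. Counts of genes past were 30 and 69 without the second and the first AML12 control, and 77 and 142 without the first and the second prolactin array.

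**Figure D4:**
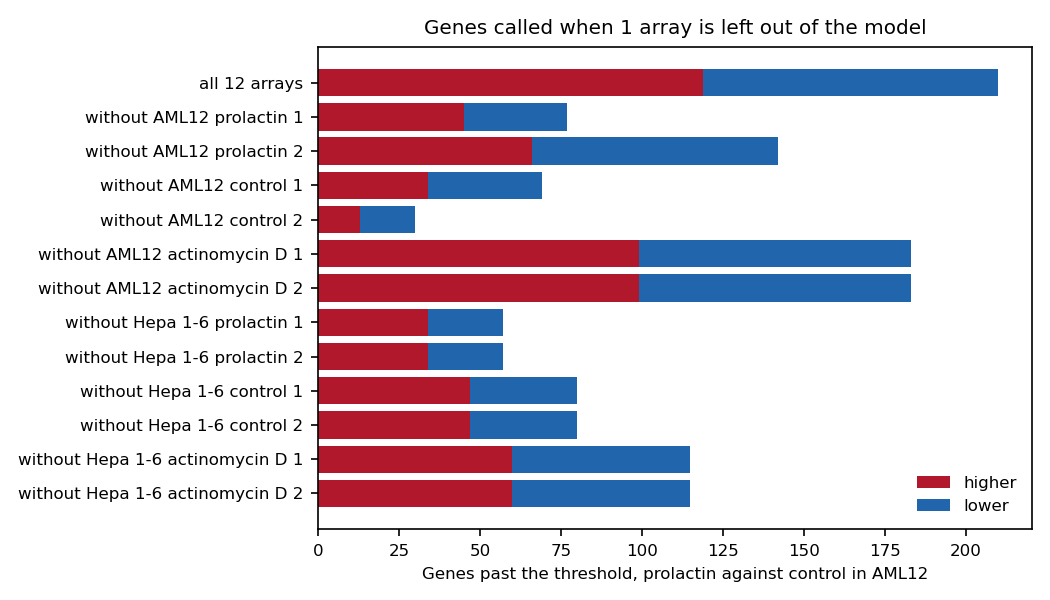
Number of genes past the threshold for prolactin against control in AML12 (horizontal axis) in the model on all 12 arrays and in each model without 1 array, genes higher in red and lower in blue. The count was 210 with all arrays and ran from 30 (without the second AML12 control) to 183; arrays of a group left with 1 member give the same count whichever was dropped, outside the compared groups.

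Hepa 1-6 cells got the same prolactin treatment, and the 2 lines' responses were compared by an interaction term, Hepa 1-6 response minus AML12 response, so a negative value means a lower response in Hepa 1-6. The difference passed for 20 genes (0.121%), 9 of them higher and 11 lower in Hepa 1-6 (11 and 25 of 36 after median centring of the arrays). Among the 20, 18 were also changed in AML12. For the other 192 of the 210 genes changed in AML12 the difference did not pass, so they are not shown to differ between the lines. In Hepa 1-6, Cish was at -1.08 and -1.22 on its prolactin arrays, against -0.99 and -0.83 on its control arrays. Its change was 2.17 in AML12 and -0.24 in Hepa 1-6, a difference of -2.41 ± 0.18 (adjusted p = 0.007). For Pde4b the changes were 1.56 and -0.28, a difference of -1.83 ± 0.12 (adjusted p = 0.0042), and for Edn1 they were 1.56 and -0.47, a difference of -2.02 ± 0.18 (adjusted p = 0.0083). In each of these 3 the Hepa 1-6 change was below 0 and did not pass. Socs2 differed by -0.68 ± 0.08 (adjusted p = 0.039), with 0.04 in Hepa 1-6. For genes that fell in AML12, the changes of Per1 were -1.82 and -0.28, a difference of 1.54 ± 0.14 (adjusted p = 0.0083). Those of Tsc22d3 were -1.53 and -0.06, a difference of 1.46 ± 0.08 (adjusted p = 0.0012). In Hepa 1-6, Per1 was at -1.05 and -1.03 on its prolactin arrays, against -0.69 and -0.83 on its control arrays. Among the glucocorticoid-induced genes that fell in AML12, the difference did not pass for Dusp1, Ddit4 and Errfi1. Their changes in AML12 and Hepa 1-6 were -0.48 and -0.72 (adjusted p of the difference 0.51), -0.72 and 0.03 (0.13), and -0.69 and -0.20 (0.31). Among the 210, 188 had an unadjusted p under 0.05 for the difference, as did 1810 of all 16549 genes, but their selection in AML12 favours a difference. In Hepa 1-6, 6 genes passed (0.0363%).

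Passing in AML12 and in Hepa 1-6 were 3 genes. They were Slc30a1 at 0.46 and 0.86, and, named because the count is small, after their values were seen, the magnesium transporter-family gene Nipal1 at 0.85 and 0.93 and the EGR corepressor gene Nab2 at 0.46 and 0.65. In these 3 genes the changes of both lines were above 0. The genes raised in AML12 had a median change of 0.04 in Hepa 1-6 and the genes lowered in AML12 one of -0.07.

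**Figure D5:**
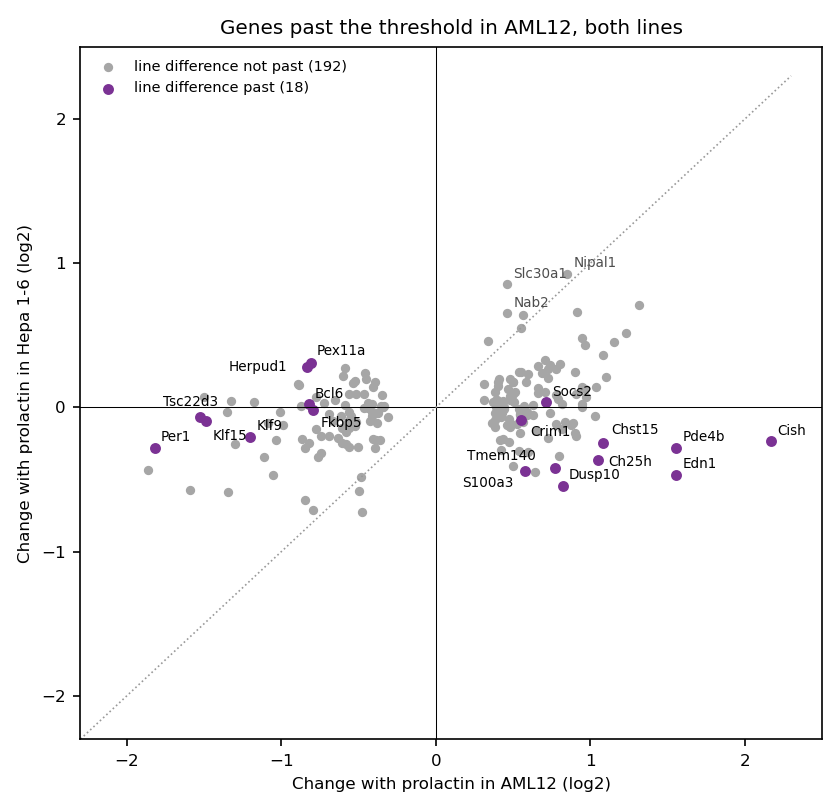
Change with prolactin in AML12 (log2, horizontal axis) against the change in Hepa 1-6 (log2, vertical axis) for the 210 genes past in AML12. Purple points are the 18 genes whose line difference passed; their changes in Hepa 1-6 lie between -0.54 and 0.31, and the dotted line marks equal change.

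Actinomycin D, which stops transcription by binding DNA, was given to AML12 at 10 µg/mL for the same 8 h, and its effect is measured against the same 2 controls, so the 2 sets of changes share error and only values side by side are given. It changed 53.6% of genes. The values are normalized ratios, so a change is relative to the other RNA on the array. A loss shared by most transcripts would not show. A value near or above 0 with actinomycin D therefore does not say that the amount of that RNA per cell was kept or rose. The change of Cish was 2.17 with prolactin and -1.87 with actinomycin D, that of Socs2 was 0.71 and -0.04, and that of Edn1 was 1.56 and -2.36. Pde4b had 1.56 and 0.71. Of the 8 glucocorticoid-induced genes that fell with prolactin, Tsc22d3 had -1.53 and -1.61, Per1 -1.82 and -1.68, and Klf15 -1.48 and -1.53. Klf9 had -1.20 and -1.29, and Fkbp5 -0.80 and -0.71. The remaining ones fell further with actinomycin D, Dusp1 at -0.48 and -3.85, Errfi1 at -0.69 and -3.71, and Ddit4 at -0.72 and -2.74. Bcl6 had -0.82 and -2.40.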

How the data were processed

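Total RNA of each AML12 or Hepa 1-6 culture was labelled with Cy5 and hybridised with a Cy3-labelled common reference on a 2-colour Agilent array, with no dye swap, per the labels' protocols. The deposited values are the authors' normalized log10 ratios, made with Agilent Feature Extraction according to the submitters' processing notes. Its version and settings, and the base of the logarithm, are not given in the sources used, and base 10 was assumed as the convention of that software. Values of exactly 0 were treated as no ratio, and the rest were converted to log2 (3.32 per unit). Features with a ratio on all 12 arrays and 1 gene symbol were averaged per symbol, giving 16549 genes. Of features with 1 symbol, 99.6% were matched to RefSeq by Entrez identifier. Without background marks, a very low ratio may reflect the detection floor. Precision is limited by how few arrays there are.

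Genes were tested in limma 3.58.1 (R 4.3.3; two-sided moderated tests from lmFit and eBayes) with 1 mean per group over the 12 arrays, 6 residual degrees of freedom and a prior of 1.84, and p-values were adjusted over all genes with a threshold of 0.05. The procedure was tested on simulated data. The genes named were those past in all 12 fits that left out 1 array, the 15 largest rises and 15 largest falls among genes that passed, members of 47 gene lists that passed (or the nearest where none did), the fixed genes and the cell type markers; any other is said to be chosen after its value was seen. The samples, lists and rule were chosen with earlier results of these data known, and lists are described by counts and medians without a test. Alternatives covered scaling, the features kept, how features were combined, the prior, a replicate block, the arrays in the model and a minimum fold of 1.2. Summaries were made in Python 3.11.15 with numpy 2.4.6 and pandas 2.3.3, and plots with matplotlib 3.10.9. The prolactin receptor gene, also among the fixed genes, was not analysed here.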

Additional observations from a re-analysis of the deposited data

Results flagged for a closer look

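For 20 genes the response to prolactin differed between the lines by the interaction term (Hepa 1-6 minus AML12, limma, adjusted p under 0.05), which is 0.121% of genes. Cish gave a difference of -2.41 ± 0.18, Edn1 -2.02 ± 0.18 and Pde4b -1.83 ± 0.12, all 3 raised in AML12 and not past in Hepa 1-6. Smaller differences of the same kind were -1.42 ± 0.18 for Ch25h, -1.36 ± 0.15 for Dusp10, -1.33 ± 0.12 for Chst15, -1.19 ± 0.10 for Tmem140, -1.01 ± 0.13 for the calcium-binding protein gene S100a3, -0.68 ± 0.08 for Socs2 and -0.64 ± 0.08 for Crim1. Genes that fell in AML12 gave positive differences, 1.54 ± 0.14 for Per1, 1.46 ± 0.08 for Tsc22d3, 1.39 ± 0.13 for Klf15, 1.12 ± 0.12 for Pex11a, 1.11 ± 0.13 for Herpud1, 1.00 ± 0.08 for Klf9, 0.85 ± 0.09 for Bcl6 and 0.78 ± 0.10 for Fkbp5. The other 2 genes, the bisphosphoglycerate mutase gene Bpgm (1.00 ± 0.09) and Id3 (-1.24 ± 0.15), had AML12 changes of -0.33 and 0.55 that did not pass. S100a3, Bpgm and Id3 were named after their values were seen.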

How the results depend on the processing

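For the count of genes changed by prolactin in AML12 (210), median centring gave 207, quantile normalization 303, a robust prior 197, and keeping exact zeros as a ratio of 1, an alternative added after seeing the data, 140. Counts moved by over 1.5 times with every feature tested by itself (780 of 35664 features, 67.9% of them higher against 56.7% of genes), a minimum fold of 1.2 (21), and the model on the 6 AML12 or 4 compared arrays alone (0 each, 2244 and 2324 at an unadjusted p under 0.05). Leaving out 1 array gave 30 to 183. Among Hepa 1-6 arrays, dropping either prolactin array gave 57, either control 80, and either with actinomycin D 115. With a replicate block it was 100 (58 higher, 42 lower, 92 of them among the 210). The deviations of same-numbered AML12 prolactin and control arrays correlated at 0.0534. Over all pairs of groups such correlations ran from -0.0476 to 0.159, the highest for AML12 control and AML12 actinomycin D. The replicate numbers are thus not shown to pair the cultures. The line difference (20) was 36 after median centring, 31 without the lowest 20% of mean ratios, 13 with exact zeros kept, 47 by feature, 10 with the replicate block and 3 to 25 with 1 array left out (3 when the first Hepa 1-6 array with prolactin was dropped, 10 when the second AML12 control was). The cause of these shifts was not tested, apart from fewer arrays or features in the model. All 210 genes had both prolactin arrays on 1 side of both controls. Leaving out 1 array could therefore not reverse the sign of a change that passed, and the lack of reversals there adds no support. Of 91 genes named that passed, 0 reversed under any alternative, 45 passed in every one other than array omissions, the restricted models and the minimum fold, and 36 did not pass with the block; of 31 that did not pass, 15 passed under some alternative.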

Other observations

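Changes of at least 2-fold, past the threshold or not, were measured for 157 genes. Leaving out predicted and unnamed models, 14 genes reached 1.5 log2 units without passing. In 12 of these the groups did not overlap, beside 48.8% of all genes tested, and selection for a large change favours such separation. Igfbp1 is one of the 14. Those given here were chosen after their values were seen. Csf2, the gene of a granulocyte and macrophage growth factor, was at 1.55 ± 0.30 (adjusted p = 0.057) over 10 features. Depp1, an autophagy-related gene known to respond to FoxO, was at 2.95 and 3.04 on the prolactin arrays, against 1.57 and 1.26 on the control arrays, a change of 1.58 ± 0.31 (adjusted p = 0.059). Cfap45, a ciliary protein gene, was at -2.61 and -2.54 on the prolactin arrays, against -0.60 and -0.80 on the control arrays, a change of -1.87 ± 0.38 (adjusted p = 0.064). In these 3 genes the groups did not overlap. In 7 of the 14, replicates of 1 group lay more than 2 log2 units apart, and 3 of these are given. Rbfox1, a splicing factor gene, was at -3.03 and 3.09 on the prolactin arrays, against -3.04 and -2.77 on the control arrays, Rsph1, another ciliary protein gene, at -2.24 and -1.23 on the prolactin arrays, against -1.45 and 2.01 on the control arrays, and Krt34, a hair keratin gene, at 3.01 and 0.55 on the prolactin arrays, against 0.15 and 0.39 on the control arrays. Rbfox1 and Rsph1 were the 2 genes of the 14 whose groups overlapped.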
